A study of Mus musculus with 4 samples.

Results

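The keratin genes Krt1, Krt10, Krt2, Krt77, Krt78, Krt79 and Krt80 were followed across 4 libraries of mouse lower eyelid. These genes encode keratins of differentiating skin and gland duct, and they were taken by name from the tables of expressed genes. All 7 were listed in every library, among 15816 genes listed in at least 1. The lids came from wild-type C57BL/6 mice, with 1 library each from a male and a female group aged 3 months and a male and a female group aged 2 years. Young below means 3 months and old 2 years, and the word males or females after either stands for that single library. The number of animals behind a library is not given in the labels. A lower lid contains skin, hair follicles, conjunctiva, meibomian glands, muscle and dermis, so RNA of all these tissues is pooled in every library. A lower level in such a bulk sample cannot be told apart between fewer cells of a type and less RNA per cell.

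Keratins form the intermediate filaments of epithelial cells, and each filament pairs an acidic type I chain with a basic type II chain. When a basal keratinocyte leaves the basement membrane it stops making the basal pair, Krt5 and Krt14, and starts making Krt1 and Krt10, which fill the layers above. Krt10 is the type I chain among the genes followed here, and the other 6 are type II chains.

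Levels are RPKM values, reads scaled to gene length and to the mapped total of the library, as deposited by the authors, so genes can be set side by side per length. The tables listed 14800 to 15299 genes per library, and the summed coverage was lowest in old females (3.16 gigabases) and highest in old males (3.91). Epithelial markers were high in every library (Krt5 at 1544 to 4112 RPKM and Krt14 at 1685 to 2695), while Krt12, the keratin of the cornea, was at 0.179 to 2.55 RPKM. Which cell layer the RNA came from cannot be checked in whole-lid libraries. Each group is a single library, so a difference between groups carries no p-value and was not checked in replicates. Differences are given on the log2(RPKM + 1) scale, which understates the change of low genes, and a gene is counted as apart when it differs at least 2-fold on that scale. The 12094 genes with a mean of at least 1 RPKM form the background, and 6 of the 7 keratins are among them. Krt2 had a lower mean and is described by its levels alone.

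Of the 6 keratins, 5 were lower by 2-fold or more in old than in young females (Krt1, Krt10, Krt77, Krt78 and Krt80) and 1 was higher (Krt79). Across all genes 3.37% were 2-fold lower and 5.33% 2-fold higher in that comparison. In males Krt77 alone among the 6 was 2-fold lower at 2 years, where 0.215% of all genes were, and 0 were higher, against 0.827%. Most of the spread among libraries for Krt1, Krt10 and Krt78 therefore lay in the old female library.

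**Figure D1:**
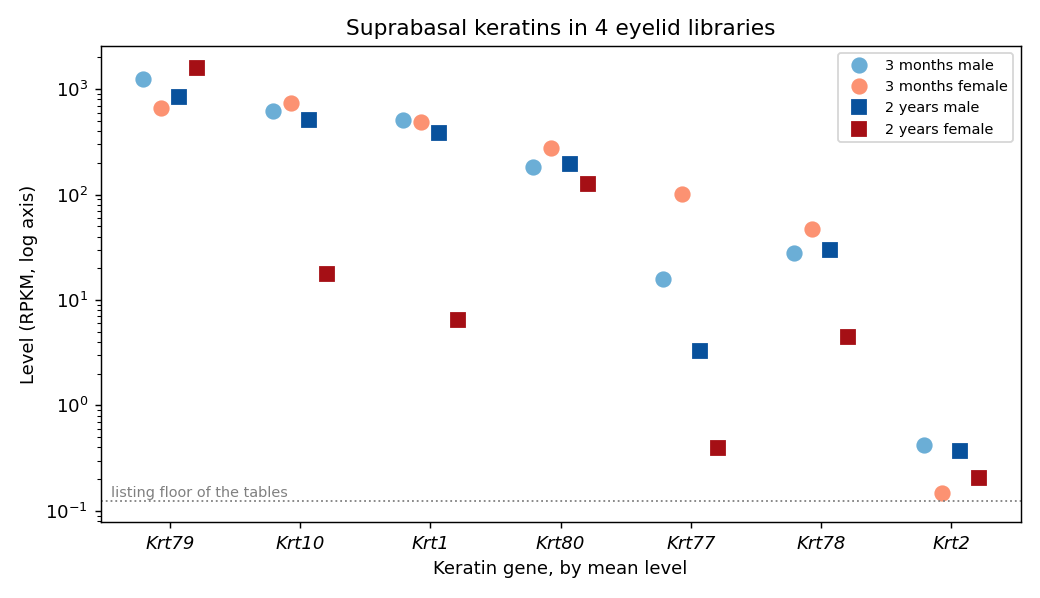
Level of each of the 7 keratin genes in RPKM (log axis) in the 4 libraries, 1 point per library, with the genes ordered by their mean level. In the old female library Krt1, Krt10, Krt77 and Krt78 lie below the other 3 libraries and Krt79, at 1603 RPKM, lies above them.

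Krt1 and Krt10 make up the main filament pair of the spinous layer. Krt1 had 514.7 RPKM in young males, 490.1 in young females, 380.2 in old males and 6.46 in old females. Krt10 had 625.2, 732.4, 512.4 and 17.5 RPKM in the same order. The 3 libraries other than the old female lay within 1.35-fold of each other for Krt1 and 1.43-fold for Krt10, and the old female library lay far below them. In RPKM, Krt1 was 75.9-fold and Krt10 41.9-fold lower in the old than in the young female library. By level among the listed genes, Krt1 ranked 105th in young females and 7629th in old females, and Krt10 ranked 70th and 4021st. Ordered from the most negative difference, Krt1 was the 2nd and Krt10 the 5th of 12094 genes in the female age comparison, by -6.04 and -5.31 on the log2 scale. In males the differences were -0.44 and -0.29. Between the sexes, they were -0.07 and 0.23 at 3 months and -5.68 and -4.80 at 2 years (female minus male).

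The balance of the pair also differed. The Krt1 level was 0.823 of the Krt10 level in young males, 0.669 in young females, 0.742 in old males and 0.369 in old females. The type II partner was thus the more reduced of the pair in the old female library. The size of this ratio depends on the gene models used for length. Computed from the coverage column with exon lengths of GENCODE it was 0.461, 0.375, 0.415 and 0.207, in the same order of libraries. Coverage is proportional to RPKM within each library, so this is no second measure of how the libraries differ.

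Krt77 is a close relative of Krt1 that in mice is made in suprabasal epidermis. It varied most of the 7, with 101.5 RPKM in young females, 15.7 in young males, 3.29 in old males and 0.398 in old females. Both old libraries were below both young ones. It was the 1st of 12094 genes in the female age comparison counted from the most negative, by -6.20, and the 4th in the male one, by -1.96. In females the RPKM ratio was 254.9. The value for old females rests on a summed coverage of 2411 bases over the whole gene, against 728179 for young females, and the log2 difference ranged from -4.30 with a pseudocount of 5 to -7.67 with 0.1. At 3 months Krt77 was 2.61 higher in the female library on the log2 scale, the 2nd largest value of all genes, and it alone of the 6 was 2-fold apart between the young sexes (0.364% of all genes were 2-fold higher and 0.976% lower). At 2 years it was lower in the female library by -1.62, a difference that came to -0.62 with a pseudocount of 5. In that comparison of the old libraries 4 of the 6 were 2-fold lower in the female (Krt1, Krt10, Krt77 and Krt78) against 1.98% of all genes, and 0 were higher against 1.78%.

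Krt78 and Krt80 are type II keratins of stratified epithelia, and Krt80 has been found near desmosomes in human epithelia. Krt78 had 28.1 RPKM in young males, 47.6 in young females, 29.5 in old males and 4.49 in old females. The old female library was the lowest, and the male libraries were nearly equal. The log2 difference with age was -3.15 in females, the 17th from the most negative of 12094 genes, and 0.07 in males, where scaling to Krt5 and Krt14 turned it to -0.04. Krt80 had 181.9 RPKM in young males, 279.4 in young females, 193.7 in old males and 126.4 in old females. Of the 5 lower genes it differed least, by -1.14 in females and 0.09 in males (-0.02 when scaled to Krt5 and Krt14). It ranked 299th from the lowest in females.

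Krt79 is made in mice by the upper hair follicle and by the ducts of sebaceous glands. It had the highest mean level of the 7, with 1237 RPKM in young males, 666.1 in young females, 849.0 in old males and 1603 in old females. The old female library was here the highest and the young female the lowest. The log2 difference with age was 1.27 in females and -0.54 in males, opposite in sign to each other. Ordered from the most positive difference, Krt79 was the 402nd of 12094 in females. Between the sexes it differed by -0.89 at 3 months and 0.92 at 2 years. By level it was the 20th gene listed in old females and the 80th in young females.

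Krt2 is made in the upper spinous and granular layers, in mice mainly of thick or hairless skin. It was near the listing floor of 0.125 RPKM in all libraries, at 0.419 RPKM in young males, 0.148 in young females, 0.371 in old males and 0.206 in old females. Its coverage was between 1620 and 4657 bases, and its mean over the 4 libraries was the lowest of 50 keratin genes listed. No age or sex difference is read from these values.

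**Figure D2:**
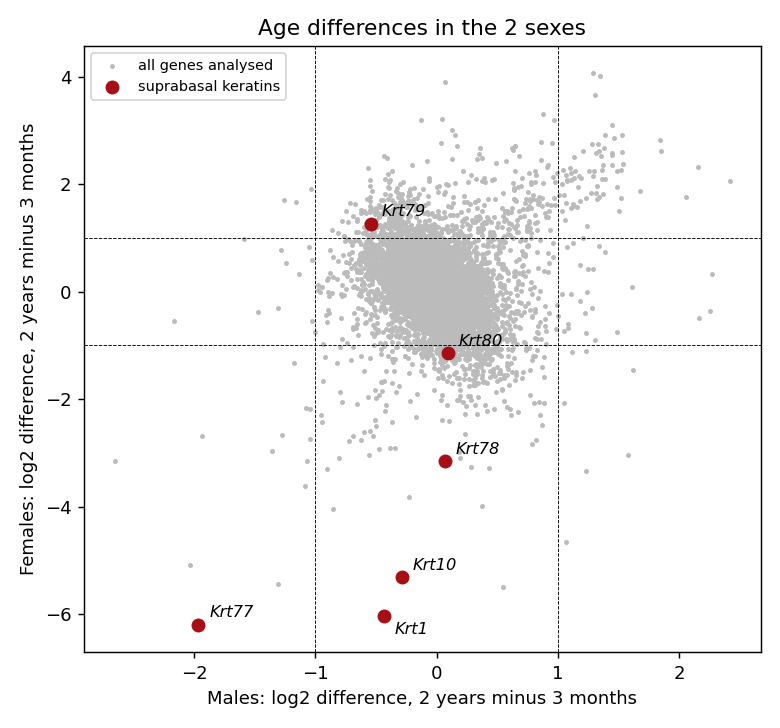
Log2 difference between 2 years and 3 months in males (horizontal axis) and females (vertical axis) on the log2(RPKM + 1) scale, with 1 grey point for each of 12094 genes, the 6 analysed keratins in red, and dashed lines at 2-fold. Krt1, Krt10 and Krt77 lie at the lower end of the female axis, Krt77 is also below the 2-fold line in males, and Krt79 (1.27 in females and -0.54 in males) is the only one of the 6 above 0 on the female axis.

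The sum of the 7 genes hid these shifts. It was 2603 RPKM in young males, 2317 in young females, 1968 in old males and 1758 in old females. Krt1 and Krt10 together held 43.8%, 52.8%, 45.3% and 1.36% of it, and Krt79 held 47.5%, 28.7%, 43.1% and 91.2%. In the old female library the sum was therefore almost entirely Krt79. All keratins together summed to 14339 RPKM in that library and to 25078 to 31209 in the other 3 libraries, and the 7 genes made up 12.3% and 7.04% to 10.4% of these sums.

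By the positions in the deposited tables, on the mm10 build, Krt10 lies in the type I keratin cluster on chromosome 11, from 99385256 to 99389364. The other 6 lie in the type II cluster on chromosome 15, in the order Krt80 (101349571 to 101370125), Krt2 (101810689 to 101818169), Krt1 (101845426 to 101850786), Krt77 (101859856 to 101869618), Krt79 (101929332 to 101940324) and Krt78 (101946004 to 101954287). All 7 are on the minus strand. Krt78 and Krt79 are neighbours with opposite age differences in the female libraries. No stretch of 50 bases in the GENCODE transcripts of the 7 genes was shared with a transcript of another gene. Krt10 and Krt80 each overlap an antisense gene (Gm11940 and Gm35853), and because the strand setting of the counting is not given, reads of those genes cannot be told apart from theirs.

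The 250 bases before the RefSeq start of Krt10, Krt77 and Krt78, which were lower together in the old female library, are shown with those of Krt79, which was higher. They are written from 5' to 3' on the minus strand of GRCm38.p6, at chr11:99389365-99389614 for Krt10, chr15:101869706-101869955 for Krt77, chr15:101954288-101954537 for Krt78 and chr15:101940325-101940574 for Krt79. The window of Krt77 adjoins the GENCODE end of the gene, 101869705, and the other 3 adjoin the locus ends given above. Capitals mark the letters TATAAA and CAGGTG or their reverse complements.
Krt10: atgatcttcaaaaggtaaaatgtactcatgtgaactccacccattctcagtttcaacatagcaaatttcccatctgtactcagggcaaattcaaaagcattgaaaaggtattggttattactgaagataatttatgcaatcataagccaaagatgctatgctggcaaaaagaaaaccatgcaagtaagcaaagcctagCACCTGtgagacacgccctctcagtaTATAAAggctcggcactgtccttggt
Krt77: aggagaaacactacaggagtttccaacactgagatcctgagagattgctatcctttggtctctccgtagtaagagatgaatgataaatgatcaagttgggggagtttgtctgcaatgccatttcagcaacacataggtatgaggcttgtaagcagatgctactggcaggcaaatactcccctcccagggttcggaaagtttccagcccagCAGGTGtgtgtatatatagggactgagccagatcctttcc
Krt78: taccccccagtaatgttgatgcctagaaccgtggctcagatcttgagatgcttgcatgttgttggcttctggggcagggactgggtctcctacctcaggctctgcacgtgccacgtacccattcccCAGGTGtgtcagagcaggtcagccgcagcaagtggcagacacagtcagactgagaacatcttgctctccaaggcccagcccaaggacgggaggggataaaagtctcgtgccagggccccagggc
Krt79: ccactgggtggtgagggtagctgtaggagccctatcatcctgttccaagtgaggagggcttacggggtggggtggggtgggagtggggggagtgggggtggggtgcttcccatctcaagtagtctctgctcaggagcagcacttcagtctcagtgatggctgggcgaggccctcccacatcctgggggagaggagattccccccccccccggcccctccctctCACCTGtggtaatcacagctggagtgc
The windows of these genes and of Krt2 were searched on both strands for TATAAA, the core of a TATA box, TGANTCA, the letters bound by AP-1 factors, and CAGGTG, an E-box, which was added after the sequences were read. TATAAA was found in the Krt10 window, starting 26 bases before the start, and in 12.4% of 32851 windows of all genes. Only these exact letters were searched. Related letters, such as tatatata in the Krt77 window and tatataag in the Krt2 window, were not counted, so a TATA box elsewhere is not excluded. TGANTCA was found in 0 of the 5 and in 6.75% of all windows. CAGGTG was in 4 of the 5, at 52 bases before the start in Krt10, 40 in Krt77, 124 in Krt78 and 27 in Krt79, and in 17.2% of all windows. The 3 genes that were lower and the 1 that was higher both held it, and a match of letters is not a bound site.

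The 6 genes were also set against the basal keratins of the same library. The basal pair, Krt5 and Krt14, summed to 5606 RPKM in young males, 6360 in young females, 6045 in old males and 3229 in old females. For every 100 RPKM of this sum there were 9.18, 7.71, 6.29 and 0.200 RPKM of Krt1 and 11.2, 11.5, 8.48 and 0.541 of Krt10. Both were thus reduced far more than the basal pair. Krt78 had 0.501, 0.749, 0.488 and 0.139 on the same measure, and Krt77 0.281, 1.60, 0.0544 and 0.0123. Krt80 had 3.24, 4.39, 3.20 and 3.91, so that on this measure the old female library lay between the others. Krt79 had 22.1, 10.5, 14.04 and 49.6, a wider range than in RPKM. The libraries were also scaled to equal Krt5 and Krt14, which was chosen after seeing the data. In females this scaling moved the median age difference of all genes from 0.07 to 0.94. The age differences in females were then -5.14 for Krt1, -4.36 for Krt10, -5.69 for Krt77, -2.28 for Krt78, -0.17 for Krt80 and 2.24 for Krt79. The order of the 6 genes was the same as in RPKM, and Krt80 lay below that median.

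**Figure D3:**
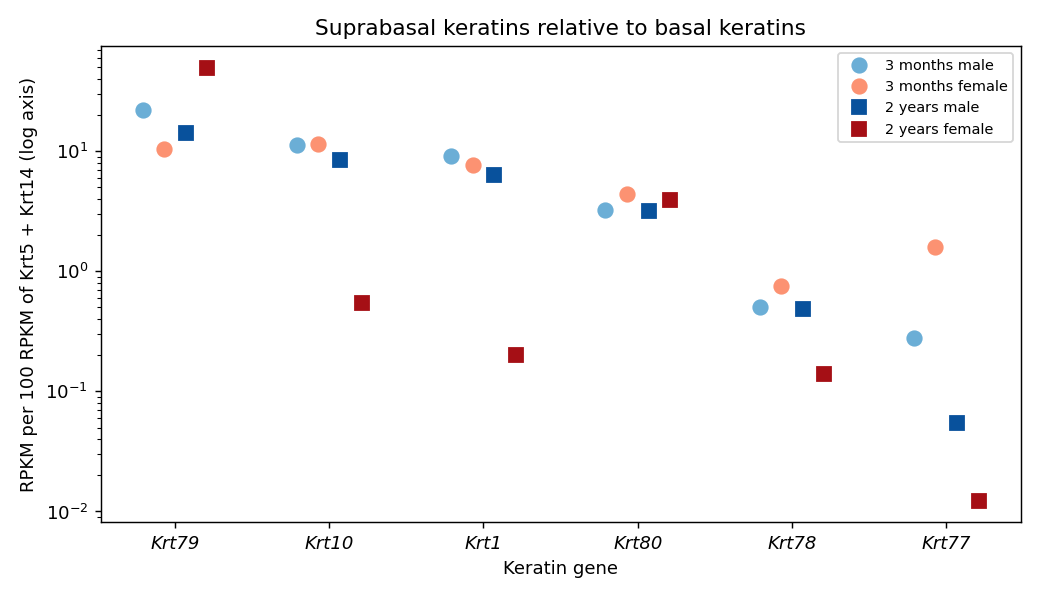
Level of 6 keratins in each library per 100 RPKM of Krt5 and Krt14 combined (log axis), 1 point per library. Krt1 and Krt10 are at 0.200 and 0.541 in the old female library, Krt80 stays between 3.20 and 4.39, and Krt79 reaches 49.6.

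Averaged over the sexes, no keratin passed a test for age. limma was fitted to all 4 libraries with age and sex as terms, which leaves 1 residual degree of freedom, so that a p-value reflects no more than how these 4 libraries scatter. The averaged difference, old minus young, was -3.24 ± 1.44 for Krt1 (log2, SE, 2 against 2 libraries), -2.80 ± 1.31 for Krt10 and -4.08 ± 1.077 for Krt77. It was -1.54 ± 0.83 for Krt78, -0.52 ± 0.43 for Krt80 and 0.36 ± 0.73 for Krt79. With the Benjamini-Hochberg adjustment over all genes, limma called 0 of 12094 genes for age, or 0.0%, and 355 had an unadjusted p under 0.05, among them Krt77 (limma p 0.0197, adjusted p 0.999995). For sex it called 0 genes as well, or 0.0%, with 74 at an unadjusted p under 0.05 and none of the keratins among them. What the fit treats as error is how far the age difference of females departs from that of males. This departure, female minus male, was -5.61 for Krt1, -5.02 for Krt10, -4.23 for Krt77, -3.22 for Krt78, -1.23 for Krt80 and 1.81 for Krt79, and it could not itself be tested. When old males were left out and the sex term dropped, the old female library differed from the mean of both young ones. The difference was -6.08 for Krt1 and -5.20 for Krt10. When old females were left out instead, the age difference was -0.40 for Krt1 and -0.40 for Krt10. Each of these fits holds a single old library, so its error rests on the 2 young libraries and no call is read from it.

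For each keratin the 5 genes with the nearest pattern were found by the distance between log2(RPKM + 1) profiles over the 4 libraries, each centred on its mean. With 4 points that share depth and tissue mix, such likeness is a description only. Krt1 and Krt10 lay at a distance of 0.79 from each other, and outside the 7 keratins their 5 nearest genes included the same 4: Sprr3 (0.80 and 0.77), Lor (1.16 and 0.78), Serpinb12 (1.68 and 1.06) and Lce3a (1.88 and 1.23). Sprr3, Lor, which encodes loricrin, and Lce3a are precursors of the cornified envelope, and Serpinb12 is a protease inhibitor. Sprr3 had 42.1 RPKM in young males, 50.6 in young females, 62.1 in old males and 0.139 in old females. With age in males, Sprr3 differed by 0.55, Lor by -1.30, Serpinb12 by -0.23 and Lce3a by 1.06. Lor and Lce3a were thus 2-fold apart in males, in opposite directions, where Krt1 and Krt10 were not. The 5th gene was Serpinb3a for Krt1 and 2300002M23Rik for Krt10.

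Krt77 was nearest to Lce1m (1.33), another envelope precursor, which stood at 22.8 RPKM in young males, 45.03 in young females, 4.79 in old males and 0.356 in old females. Ear2, 2310050C09Rik, Serpinb3a and Rps4l followed at 2.22 to 2.57. The Krt77 pattern had no match as close as those of Krt78, Krt79 or Krt80. Krt78 was near the beta-defensin genes Defb4 (0.20) and Defb14 (0.37), Rpph1 (0.34), Krt13 (0.37), the mucosal type I keratin of conjunctiva, and Lce1l (0.46). Krt13 stood at 2286 RPKM in young males, 3842 in young females, 3081 in old males and 392.3 in old females.

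Krt79 was nearest to Pex11a (0.016), a gene of peroxisome division, then to Msrb3, Arl5a, Mboat7 and Nrp2 (0.053 to 0.090). Pex11a stood at 20.2 RPKM in young males, 10.3 in young females, 13.5 in old males and 26.5 in old females. Genes near Krt80 included Trim16, Chmp4c, Ablim1 and Anxa11 (0.049 to 0.083). Krt2 was nearest to Krtap5-4 (0.034), Ddx39, Tnni1, Nxph4 and D730001G18Rik, which mostly reflects its small range on this scale. Krt1 and Krt10 thus shared 4 of their 5 neighbours and Krt1 and Krt77 shared 1, and every other pair of the 7 keratins shared 0.

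**Figure D4:**
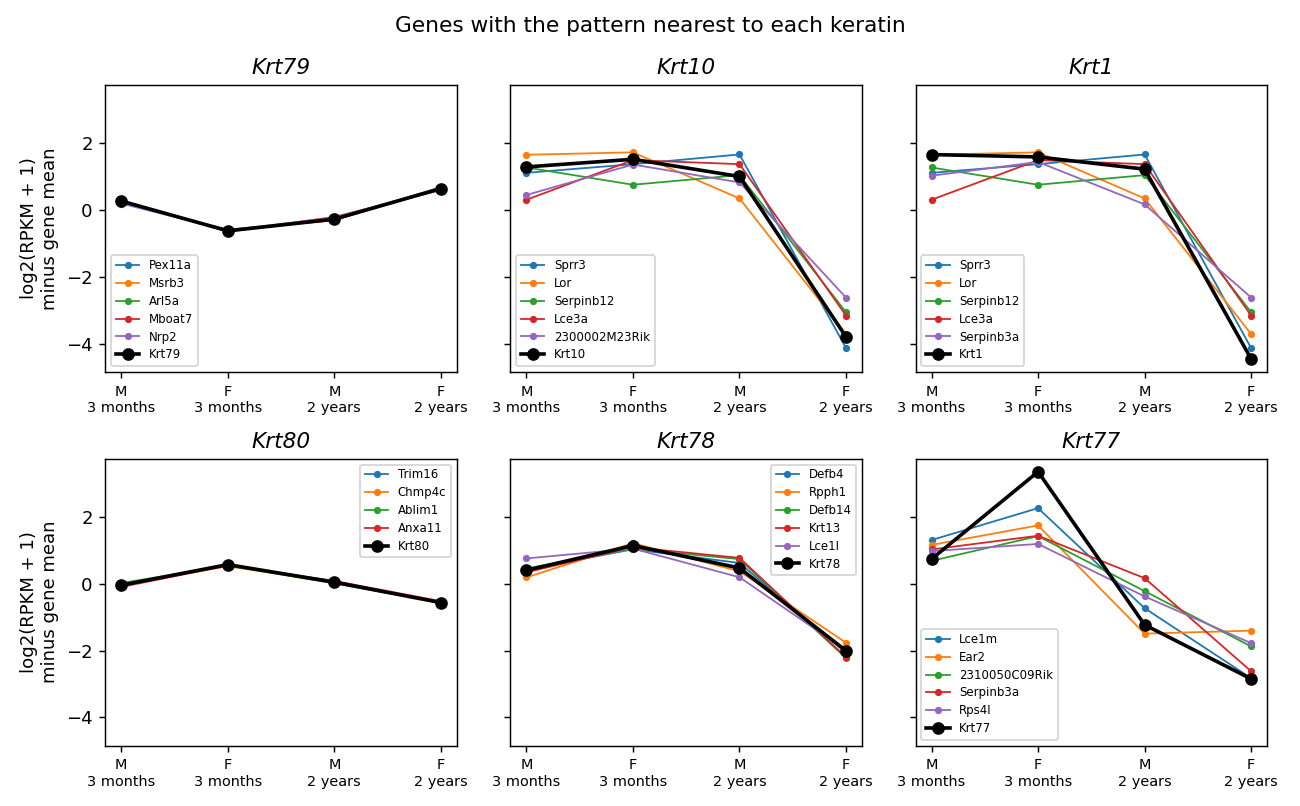
Profiles of 6 keratins (black) and the genes nearest to each (colours, 5 per keratin and 4 for Krt80) over the 4 libraries, as log2(RPKM + 1) minus the gene's own mean, where lines only join the values of 1 gene. Krt1 and Krt10 run flat over 3 libraries and are low in the old female library, and Krt79 and its neighbours are highest in that library.

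The other keratinocyte genes differed in part in the same direction as Krt1. Across all genes 3.37% were 2-fold lower and 5.33% higher in old females, and 0.215% and 0.827% in old males. These shares apply to all the lists below. At the male shares a count of 0 does not set a short list apart from all genes. Of 38 analysed cornified envelope precursors, which harden the outermost cells, 25 were at least 2-fold lower in old females and 1 was higher, with a median log2 difference of -1.77, against a median of 0.07 over all genes. With a pseudocount of 5 it was 16 and 1 (median -0.87), and with 0.1 it was 25 and 3 (median -2.42). In males 6 were lower and 5 higher, with a median of -0.44. The summed level of the precursors did not follow the female median. It was 4525 RPKM in young males, 3550 in young females, 3353 in old males and 4241 in old females. The 1 precursor that was higher in old females differed by 2.17. Of 16 desmosome genes, which anchor keratin filaments to the cell border, in old females 3 were 2-fold lower and 0 higher (median -0.26). The 3 were the plakin genes Ppl (-1.54) and Evpl (-1.496) and the cadherin gene Dsc2 (-1.24), and 0 were apart in males. Of 26 genes of transcription factors and Notch signalling in epidermal differentiation, 2 were lower in old females and 1 was higher. These were Hopx (-1.53), Grhl3 (-1.15) and, higher, Cebpa (1.14). Both counts lay near the shares of all genes. The median was -0.24, and 0 were apart in males.

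Of 16 barrier lipid genes in old females 4 were 2-fold higher and 2 were lower (median 0.54). Elovl1, a fatty acid elongase, stood at 1520 RPKM in young males, 690.5 in young females, 1176 in old males and 2248 in old females. Cyp4f39, a fatty acid hydroxylase, was higher in old females by 1.87. Alox12b, a lipoxygenase of the cornified layer, was low in that library, at 4.75 RPKM in young males, 5.28 in young females, 4.94 in old males and 0.206 in old females. Of 16 epidermal protease, inhibitor and transglutaminase genes 4 were lower and 1 higher (median -0.30), among them Serpinb12 (-3.81), which the old female table did not list, Klk14 (-2.93) and, higher, Klk6 (1.60). In males 0 of either list were apart.

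Other keratin groups did not share 1 direction. Of the 3 basal keratins 2 were 2-fold lower in the old female library (median -1.41), Krt15 by -1.73 and Krt5 by -1.41, and Krt14 differed by -0.42. Of 4 stress keratins 2 were lower (median -1.20), Krt6b by -2.28 and Krt6a by -1.43. Of 9 analysed mucosal, corneal and simple keratins 6 were lower (median -1.48), led by Krt13 (-3.29) and Krt4 (-2.29). Of 21 inner root sheath and hair keratins 0 were apart in either sex, and their female median was 0.06 (-0.01 with median scaling). In males 0 genes of these lists were apart with age.

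Markers of the other lid tissues differed in the same libraries. All 7 meibocyte genes (Scd1, Awat2, Soat1, Elovl3, Far2, Plin2 and Mc5r) were 2-fold higher or more in old females, and in males 0 were apart. They summed to 7806 RPKM in young males, 3234 in young females, 5728 in old males and 10971 in old females, the same order of libraries as for Krt79. All 6 skeletal muscle genes were 2-fold higher at 2 years in each sex, and summed to 272.9, 242.1, 732.9 and 1290 RPKM. Of 5 dermal fibroblast genes all were 2-fold higher in old females and 2 in old males, and they summed to 34.4, 30.2, 82.5 and 233.9 RPKM. Of 4 conjunctival genes Krt4, Krt13 and Krt19 were 2-fold lower in old females and Muc5ac was higher. The 4 summed to 4540, 7104, 6380 and 1554 RPKM. Krt4 and Krt13 were already counted among the mucosal keratins above, so the lists overlap. No marker of these lists was unlisted in any library. The part of the tissue makeup of each lid in the keratin differences was not tested.

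The authors' deposited table of genes lower at 2 years in females lists Krt77, with a fold of 254.9 and a Bonferroni value of 2.43e-05, and Krt78, with a fold of 10.6 and a Bonferroni value of 6.14e-08. The authors' deposited table for males lists Krt77, with a fold of 4.79 and a Bonferroni value of 8.40e-11. Krt1, Krt10, Krt79 and Krt80, which were all at least 2-fold apart in females in the RPKM tables, are in none of the authors' deposited tables of comparisons. The sources used here do not say which replicate values those p-values were made from.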

How the data were processed

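RNA of 4 lower eyelid libraries was sequenced on an Illumina instrument, with TopHat, Cufflinks and the build mm10 listed in the submitters' processing notes, their versions and roles not given. Levels are RPKM as deposited by the authors, scaled to gene length and library total. Genes under 0.125 RPKM are not listed and were set to 0. The second column, a raw count per the file headers, was read as coverage: the coverage deposited by the authors is proportional to RPKM within each library (within 1% for 100.0% of 11446 genes), so it adds no independent measure and read depth is unknown. No counting interval is given. The p-values and the signed fold score per gene deposited by the authors come from Cyber-T per the file names and are only quoted. The score is a linear fold, negative where lower at 2 years.

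Symbols on several rows (2) were left out. Values were analysed as log2(RPKM + 1) for 12094 genes with a mean of at least 1 RPKM, with limma 3.58.1 in R 4.3.3 (intensity trend, threshold 0.05), which was tested on simulated data. Annotation came from GENCODE vM21 and promoters from RefSeq, both on GRCm38, where 5 of the 7 genes matched. Named genes are the members, the 5 nearest patterns of each, up to 3 genes per list with the largest female age difference, and Krt5 and Krt14. One gene near Krt80 is not reported here. Muc5ac, the lid marker Krt12 and the rest of the meibocyte list were named beside them. Members, lists and tests were chosen with earlier results of these data known. Alternatives changed the pseudocount, the filter, the scaling, the variance trend and the libraries in the fit.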

Additional observations from a re-analysis of the deposited data

Results flagged for a closer look

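Several keratins differed in opposite directions in groups under the same comparison, and none of these contrasts was tested, since each group is 1 library. With age, Krt78 differed by -3.15 in females and 0.07 in males, a difference of -3.22 (female minus male, log2). Krt80 differed by -1.14 and 0.09, a difference of -1.23. The male values of Krt78 and Krt80 are close to 0 and turned to -0.04 and -0.02 when libraries were scaled to Krt5 and Krt14. Krt79 went the other way, at 1.27 in females and -0.54 in males, a difference of 1.81.

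The sign of the sex difference changed with age for Krt10 (0.23 at 3 months and -4.80 at 2 years, female minus male) and for Krt77 (2.61 and -1.62), where the changes came to -5.02 and -4.23. It also changed for Krt78 (0.74 and -2.47), Krt79 (-0.89 and 0.92) and Krt80 (0.62 and -0.61). All of these involve the old female library, which held the lowest level of each of these genes but Krt79.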

How the results depend on the processing

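Of 168 differences of the 6 keratins under alternative pseudocounts, filters and scalings, 161 kept their direction and their side of 2-fold. A filter changes only which genes form the background. The differences under the alternative filters therefore equal the main ones by construction and are no check on them. The others were Krt77 between the old libraries with a pseudocount of 5 (-0.62) and, with scaling to Krt5 and Krt14, Krt80 with age in females (-0.17) and in males (-0.018), Krt78 with age in males (-0.036), Krt79 between the sexes at 3 months (-1.07) and at 2 years (1.82), and Krt80 between the old libraries (0.29). That scaling gave 1 keratin lower at 3 months and 1 higher at 2 years in females, in place of 0. The sum of the 7 genes over Krt5 and Krt14 was 0.58 higher in old than young females on the log2 scale. It was 1.01 against Krt5 alone and 1.64 without Krt1 and Krt10, and -4.70 for Krt1 and Krt10 alone, where Krt79 is 91.2% of the sum in old females. With other references the sum was nearly equal in the female libraries. Per 100 RPKM of Krt14 alone it was 103.1 in young and 104.4 in old females. Per 100 RPKM of the desmosome list it was 78.0 and 79.3. The 5 nearest genes by Pearson correlation shared 1 with those by distance for Krt79 and for Krt2, and 0 for the other keratins.

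With 1 library left out and the other factor dropped, where a lone sample is assumed to vary like the others, limma called 0 to 153 genes and 0 to 2 keratins for age, and 0 to 25 genes and 0 to 3 keratins for sex. The 3 were Krt1, Krt10 and Krt78 without young females (adjusted p 0.0137, 0.0137 and 0.0192). Averaged differences then ranged, for age, from -0.10 to 0.82 for Krt79, from -6.08 to -0.40 for Krt1, from -5.20 to -0.40 for Krt10, from -5.39 to -2.77 for Krt77, from -2.78 to -0.30 for Krt78 and from -0.83 to -0.22 for Krt80. For sex they ranged from -5.89 to 0.15 for Krt1, from -4.94 to 0.37 for Krt10, from -2.60 to 3.60 for Krt77, from -2.44 to 0.71 for Krt78, from -0.62 to 0.64 for Krt79 and from -0.57 to 0.57 for Krt80. The averaged sex difference was -0.044 for Krt77 with a pseudocount of 0.1 (0.50 in the main analysis), -0.0032 for Krt79 and -0.013 for Krt80 with median scaling (0.012 and 0.0023), and -0.029 for Krt80 with quantile normalization. The hair keratin median in females was -0.0065 with median scaling, and the basal keratin median in males was -0.12 with quantile normalization (0.17 in the main analysis). List counts moved too. In males 2 lower and 2 higher envelope precursors were left with a pseudocount of 5 (6 and 5 in the main analysis), and 1 fibroblast gene with 5 and 4 with 0.1 (2 in the main analysis). A pseudocount of 0.1 put 1 mucosal keratin lower and 1 higher, 1 barrier lipid gene lower and 1 meibocyte gene lower in males, in place of 0, and 2 protease-list genes higher in females, in place of 1. Quantile normalization left 1 basal keratin lower in females, in place of 2, and 1 barrier lipid gene was lower there, in place of 2, with it, with a pseudocount of 5 and with the filter raised to 5 RPKM. No paired analysis was possible because each group is 1 library and the labels give no replicate numbers. The cause of these changes was not tested. Depth is unknown, and Krt2 and the Krt77 level of old females are the least precise.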

Other observations

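The absence of Krt1 and Krt10 from the authors' deposited tables goes with their level. Of the 837 genes 2-fold apart with age in females whose higher RPKM was under 100, the authors' deposited tables list 805, and of the 216 whose higher RPKM was at least 100 they list 4. In males they list 106 of 107 and 0 of 19. The highest RPKM in the authors' deposited table of genes lower in old females is 109.4, below the young female levels of Krt1, Krt10 and Krt80. The highest Bonferroni value in these tables is 9.997e-05, and the cause of the pattern was not tested.

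Among all 50 keratin genes listed, Krt79 had the 6th highest mean level, Krt10 the 13th, Krt1 the 16th, Krt80 the 17th, Krt77 the 36th and Krt78 the 37th. Type I keratins summed to 14192, 18173, 16127 and 8036 RPKM in the young male, young female, old male and old female libraries, and type II keratins to 10886, 13036, 11827 and 6302.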
